A study of Mus musculus with 21 samples.

Results

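Joins on the far side of the Cα constant region were read in CH12F3, a murine B cell lymphoma line whose cells change from IgM to IgA production when stimulated. Members are all junctions on chromosome 12 of the mm9 build from position 114414909 to 114491999, the side of Cα that faces the 3′CBEs. They number 396 of the 40530 junctions in the 21 libraries (0.977%), and 318 of the 396 came from 1 genotype. The choice used position alone, with no level or comparison. CSR-HTGTS-seq starts from broken ends at 1 fixed place, the bait, here the 5′ part of Sμ. It reads what DNA, the prey, each end was joined to.

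For 72 h every culture received anti-CD40, IL4 and TGF-β as stimulus, and every group was built in CH12F3 cells that lack the Sμ to Sα segment on the non-coding IgH allele. The i3CBEc-3CBEdel cells (genotype i3CBEc-3'CBEs-delta, n = 3 libraries, 5342 junctions) carry 3 inserted CTCF-binding elements (CBEs) and lack the 3′CBEs. The i3CBEc cells (n = 3, 3828 junctions) carry the same kind of insertion, in the convergent orientation per the labels, and keep the 3′CBEs. The Iadel-i3CBEc cells (genotype Ialpha-delta-i3CBEc, n = 3, 5152 junctions) carry 3 CBEs downstream of Cγ2a and lack Iα, from which germline transcription of Sα starts. The Iadel cells (genotype I-alpha-delta, n = 6, 14644 junctions) lack Iα and have no insertion. The NCdel cells (genotype CH12F3NC-delta, n = 6, 11564 junctions) carry neither change. The labels do not say whether libraries of a group came from separate clones or cultures, so p-values measure only the spread between these libraries, which may be technical.

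In class switch recombination the enzyme AID deaminates cytosines in transcribed switch regions, and the broken ends of Sμ and of a downstream switch region are joined with loss of the DNA between them. AGCT is a preferred target motif of AID and is dense in switch regions. Beyond Cα lies the 3′ regulatory region, a group of enhancers that drives transcription of the constant genes, and beyond that the 3′CBEs, a cluster of CTCF sites at the end of the locus where chromatin loops are anchored. In the RefSeq gene table of GRCm38, which was used for gene order and for no position, the genes next beyond Igha on this side are Tmem121, Tedc1 and Crip1. The enhancers, the 3′CBEs and these genes were not placed on mm9 here, so the positions below carry no gene, exon or enhancer annotation.

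The joins fell into stretches whose sequence is shown first, because AGCT content separates them from Sα. A window of 300 bases holds 33 joins of the middle stretch, 32 of them from i3CBEc-3CBEdel, at chr12:114464214-114464513 (mm9, plus strand). The far window at chr12:114452623-114452922 (mm9, plus strand) holds 18 joins, all from i3CBEc-3CBEdel. Both give the majority base of the overlapping prey reads, which 99.44% of read bases matched in the middle window and 99.03% in the far one. The third sequence is the longest prey read of the 1-kb bin with the most joins, given from its join at 114464502 on the minus strand in i3CBEc-3CBEdel library 3. Capitals mark AGCT.
middle window: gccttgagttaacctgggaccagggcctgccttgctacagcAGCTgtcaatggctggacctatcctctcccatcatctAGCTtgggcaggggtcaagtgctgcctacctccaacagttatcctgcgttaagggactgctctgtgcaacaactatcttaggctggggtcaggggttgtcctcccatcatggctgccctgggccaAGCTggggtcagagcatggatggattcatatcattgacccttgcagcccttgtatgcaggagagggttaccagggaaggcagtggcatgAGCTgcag
far window: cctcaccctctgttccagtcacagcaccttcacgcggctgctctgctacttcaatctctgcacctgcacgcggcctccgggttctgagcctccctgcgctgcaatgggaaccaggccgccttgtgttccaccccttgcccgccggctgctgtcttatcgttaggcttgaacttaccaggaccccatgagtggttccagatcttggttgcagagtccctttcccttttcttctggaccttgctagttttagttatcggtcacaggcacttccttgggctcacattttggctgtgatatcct
longest read: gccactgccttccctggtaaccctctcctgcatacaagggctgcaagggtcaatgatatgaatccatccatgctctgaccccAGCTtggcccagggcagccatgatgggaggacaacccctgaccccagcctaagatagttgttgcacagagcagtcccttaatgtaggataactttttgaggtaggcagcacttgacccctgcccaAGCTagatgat
The middle window had 4 AGCT sites and the far window had 0. The longest read lies inside the middle window, at 114464285 to 114464502 on the other strand, so its 2 sites are 2 of those 4. GC content was 56.3% in the middle window and 56% in the far one.

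Single joins show how the bait met these sequences. Each line gives the last 30 bases of bait and the first 40 bases of prey, 5′ to 3′ as read, with bait first. Capitals mark read bases that both alignments cover (microhomology) or bases inserted between them. The first shows 1 of the longest overlaps without a mismatch among the 396 joins, 6 bases, at 114449006 on the minus strand in i3CBEc-3CBEdel library 3. The second is the longest insertion, 21 bases, at 114447335 on the minus strand in i3CBEc-3CBEdel library 2. The last 3 are the joins at 114452753 on the minus strand, the position that held the most.
shared stretch: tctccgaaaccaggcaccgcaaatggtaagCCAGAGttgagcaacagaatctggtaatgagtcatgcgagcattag
insertion: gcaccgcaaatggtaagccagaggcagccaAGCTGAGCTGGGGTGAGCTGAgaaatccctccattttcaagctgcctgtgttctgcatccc
repeated position, join 1: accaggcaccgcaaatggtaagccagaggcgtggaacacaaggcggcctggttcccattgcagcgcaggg
repeated position, join 2: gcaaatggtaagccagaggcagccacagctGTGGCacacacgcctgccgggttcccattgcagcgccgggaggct
repeated position, join 3: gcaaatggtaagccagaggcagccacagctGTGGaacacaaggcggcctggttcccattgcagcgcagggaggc
The 3 joins at the repeated position came from libraries 2 (join 1) and 3 (joins 2 and 3) of i3CBEc-3CBEdel. The bait of join 1 ended at 114664853, and those of joins 2 and 3 were recorded at 114664838 and 114664839. Joins 2 and 3 show the same 30 bases of bait, and their prey alignments hold 19 and 1 mismatches. Whether they are 1 junction read 2 times was not tested. Join 1 has neither shared nor inserted bases, and in joins 2 and 3 the alignments of bait and prey overlap by 5 and 4 bases. In join 2 the overlap of 5 holds 1 mismatch of the alignments, so not all of its capitals match both sides. Reads are printed as deposited, sequencing errors included.

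Joins downstream of Cα were spread over many positions rather than stacked on a few. The 396 joins used 382 distinct positions and strands, of which 369 held 1 join and 13 held 2 or 3. Of those 13, 8 held joins of 2 libraries. They occupied 38 of the 78 bins of 1 kb. The highest position was 114491907 and the lowest 114444148, and the last 29 kb of the region beyond it held no join in any library.

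Without the 3′CBEs, the share of junctions downstream of Cα was higher than in the starting line, by an amount that varied widely between the 3 libraries. In i3CBEc-3CBEdel the share was 0.691% (11 joins), 2.83% (56 joins) and 14.2% (251 joins) of a library's junctions, with 95% Wilson intervals of 0.387% to 1.23%, 2.19% to 3.66% and 12.6% to 15.9%. In i3CBEc it was 0.503%, 0.636% and 0.0848%. As a share of all junctions the i3CBEc-3CBEdel libraries were all above the highest i3CBEc library, library 1 by little and library 3 by far. As a share of junctions in the IgH window (250 kb on the downstream side of the bait and 20 kb on the other) the groups overlapped. They had 0.854%, 4.96% and 16.04% in i3CBEc-3CBEdel libraries 1, 2 and 3, against 0.808%, 0.993% and 0.144% in the i3CBEc libraries (exact permutation p = 0.2, adjusted p = 1). The means were 5.89% ± 7.24 in i3CBEc-3CBEdel, against 0.408% ± 0.288 in i3CBEc (SD, n = 3 each), a ratio of 14.4, or 4.31 without i3CBEc-3CBEdel library 3. The two-sided exact permutation test gave p = 0.1, the smallest that 3 against 3 libraries allow, and an adjusted p of 0.5 over the 10 regions of the IgH window, so the comparison with i3CBEc cannot pass the threshold of 0.05 in this design. None of its 10 regions was called (0%).

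Against NCdel the same libraries passed the test. NCdel libraries ran from 0.0532% through a median of 0.185% to 0.546%, all below the lowest i3CBEc-3CBEdel library. Their mean was 5.89% ± 7.24 (SD, n = 3) in i3CBEc-3CBEdel, against 0.242% ± 0.189 (SD, n = 6) in NCdel, 24.3-fold higher (exact permutation p = 0.0119, the smallest possible, adjusted p = 0.0397), where 30% of the 10 regions were called. Leaving out any 1 of the 9 libraries gave adjusted permutation p of 0.0595 to 0.179, so the call was lost each time. Before adjustment each of these p was 0.0179 or 0.0357, the smallest that the remaining libraries allow. The omissions therefore cannot tell how far the call rests on any 1 library. Without i3CBEc-3CBEdel library 3 the ratio was 7.27. These genotypes differ by the insertion as well as by the 3′CBEs, and their libraries shared no sequencing run.

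**Figure D1:**
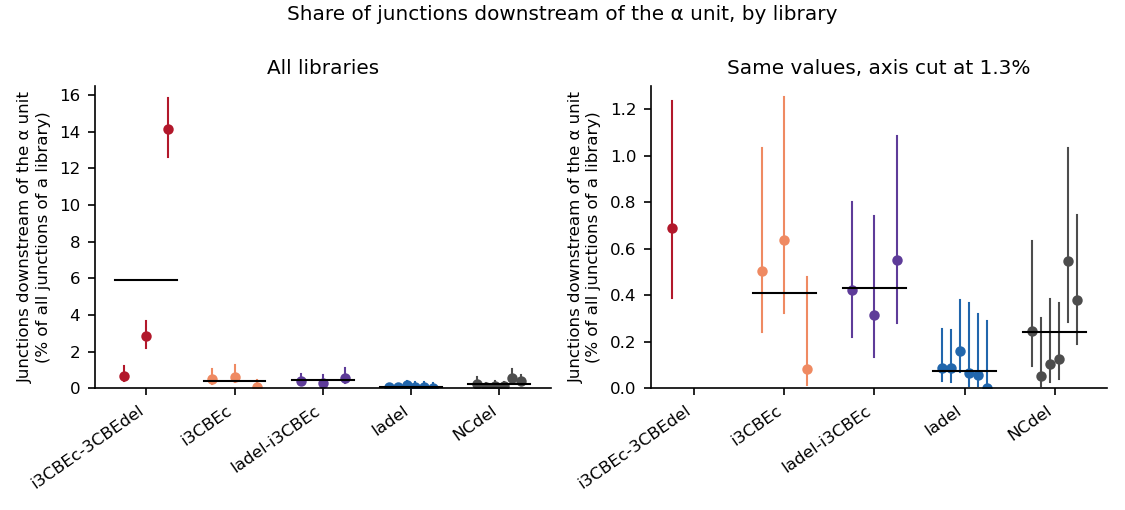
Percent of a library's junctions that lie downstream of the α unit, by group. Points are libraries, vertical lines 95% Wilson intervals and horizontal lines group means; the right panel repeats the values on an axis that ends at 1.3% and leaves out the higher libraries and mean. The 3 i3CBEc-3CBEdel libraries stand at 0.691%, 2.83% and 14.2%, and no library of the other groups is above 0.636%.

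The 3 libraries without the 3′CBEs came from 3 sequencing runs by their read names, and all 3 i3CBEc libraries from another, so effects of run and of genotype cannot be told apart in this comparison. The libraries also differed elsewhere. The α unit took 52.3%, 29.0% and 48.3% of junctions in i3CBEc-3CBEdel libraries 1, 2 and 3, and junctions outside the IgH window took 19.0%, 42.9% and 11.7%. Per 100 α joins there were 1.32, 9.77 and 29.3 downstream joins in these libraries, against 1.26, 1.61 and 0.223 in the i3CBEc libraries. On that scale library 1 lay within the range of i3CBEc and libraries 2 and 3 above it. In library 3 the read length is blank for 47.8% of all junctions and for 47.4% of downstream ones, against at most 4.04% of a library elsewhere. The part of run and of these differences in the result was not tested.

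By position, the i3CBEc-3CBEdel joins formed 2 separate stretches with an empty gap between them. Stretch bounds were drawn after the positions were seen, so the stretches are described and not tested. The far stretch, 114444000 to 114453999, held 168 joins. They were 0, 47 and 121 in i3CBEc-3CBEdel libraries 1, 2 and 3, which is 0%, 2.38% and 6.83% of junctions. The other 4 groups held 0 of 35188 junctions there, which allows a share of up to 0.00853%. The mean was 3.07% ± 3.46 in i3CBEc-3CBEdel, at least 39.1-fold higher than i3CBEc and at least 118-fold higher than NCdel, counting 3 junctions over each group's total for its 0. Without library 3 these bounds were 15.2 and 45.8. Library 1 had none either, so the stretch was seen in 2 of 3 libraries of the genotype.

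Within the far stretch the joins were spread out rather than stacked. They used 163 distinct positions from 114444148 to 114453996, and the widest gap between neighbours was 871 bases. The 6 bins from 114447000 to 114452999 held 147 of the 168 joins. In library 2 each of these bins held 4 to 9 joins, and in library 3 each held 13 to 23. The median position was 114449492 in library 2 and 114449754 in library 3. Prey alignments there had a median length of 50 bases in library 2 and 139 bases in library 3, and 25 and 105 of their joins had at least 50 bases aligned.

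From 114454000 to 114462999 the i3CBEc-3CBEdel libraries held 0 joins and the other 4 groups held 5. Deleted DNA can give no join, and the labels do not give the bounds of the 3′CBE deletion. Whether this gap is part of the deleted segment was not tested. The middle stretch, 114463000 to 114469999, held 136 joins of i3CBEc-3CBEdel, of which 4 were in library 1, 8 in library 2 and 124 in library 3. Library 3 had 100 of its 124 in the 2 bins from 114464000 to 114465999, and library 2 had 7 of its 8 there. The other groups held 4 joins in i3CBEc, 1 in Iadel-i3CBEc, 2 in Iadel and 11 in NCdel. The mean share was 2.55% ± 3.85 in i3CBEc-3CBEdel, against 0.103% ± 0.0357 in i3CBEc and 0.0994% ± 0.102 in NCdel. The ratios of 24.8 to i3CBEc and 25.7 to NCdel became 3.19 and 3.30 without library 3, so most of the middle excess was in that library. The balance between stretches differed too: the far stretch made up 0%, 83.9% and 48.2% of downstream joins in i3CBEc-3CBEdel libraries 1, 2 and 3.

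Next to Cα, from 114470000 to 114491999, the genotypes were closer together. The share there was 0.276% ± 0.202 in i3CBEc-3CBEdel (0.44%, 0.0506% and 0.338%), 0.255% ± 0.240 in i3CBEc, 0.377% ± 0.0930 in Iadel-i3CBEc, 0.0545% ± 0.0443 in Iadel and 0.143% ± 0.0908 in NCdel. The i3CBEc-3CBEdel libraries lay on both sides of the i3CBEc mean, unlike in the far stretch.

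**Figure D2:**
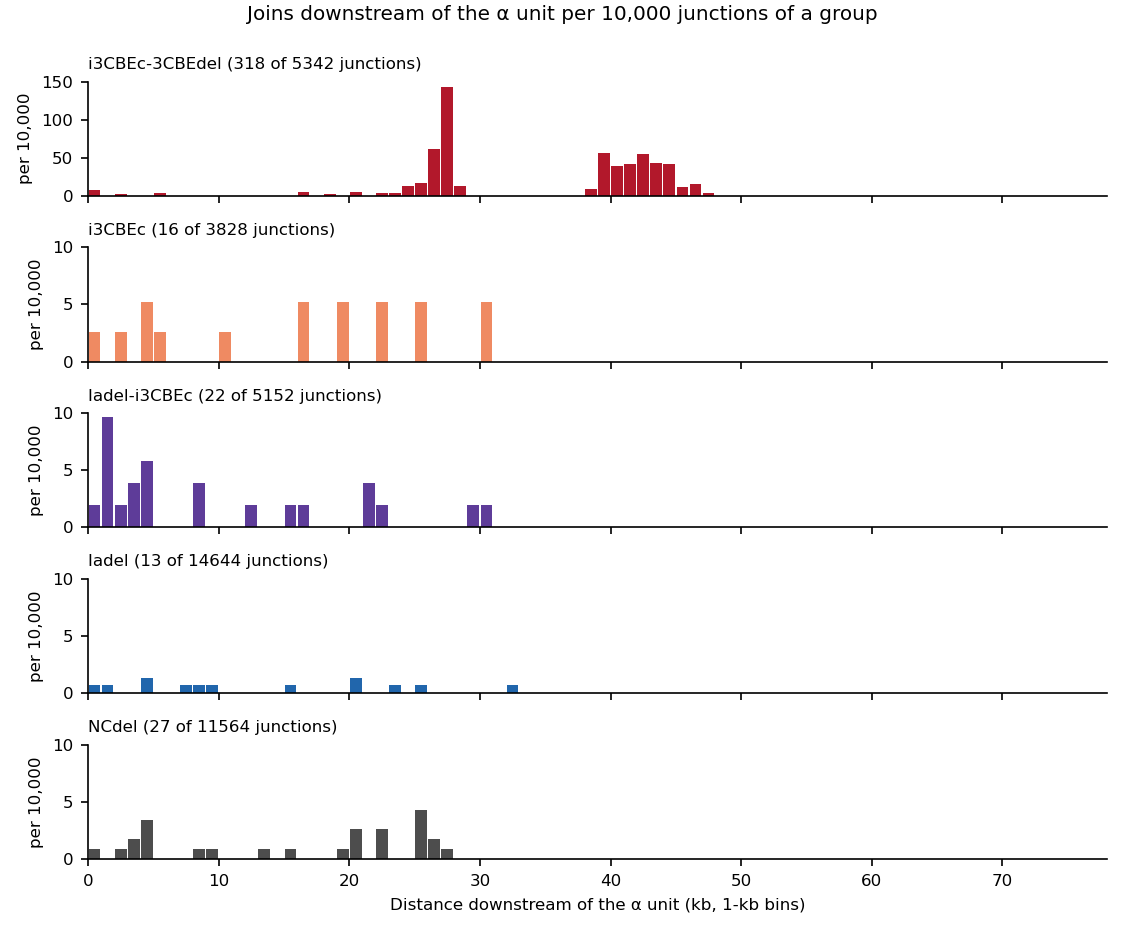
Joins downstream of the α unit per 10000 junctions of a group, in 1-kb bins by distance from the end of the α unit (kb); the top panel, i3CBEc-3CBEdel, runs to 150 and the other panels to 10. The 2 stretches of i3CBEc-3CBEdel stand apart, and the far one is empty in the other 4 groups.

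A linear model of log2 joins per 10000 junctions (limma, 0.5 added to each count) was fitted to all 1-kb bins of the IgH window with at least 10 junctions over all libraries, which gave 60 bins, 10 of them downstream. Between i3CBEc-3CBEdel and i3CBEc it called 8 of the 10 downstream bins, all higher, where 13.3% of the 60 bins were called. Between i3CBEc-3CBEdel and NCdel it called 8 of 10, all higher, where 33.3% of the 60 were called in either direction and 28.3% higher. The same i3CBEc-3CBEdel libraries enter both comparisons. The 8 bins reached the minimum through the joins of i3CBEc-3CBEdel, so their direction was set by the filter and the count is a description. Against i3CBEc the count was 0 with 2 in place of 0.5 added to each count. It fell to 0 without i3CBEc-3CBEdel library 3 or i3CBEc library 1, to 2 without i3CBEc-3CBEdel library 2 and to 1 without i3CBEc library 2 or 3. Against NCdel 7 or 8 bins were called with any 1 library left out.

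The bin at 114464000 to 114464999 held the most joins, 77, of which 76 were from i3CBEc-3CBEdel (1, 6 and 69 in libraries 1, 2 and 3) and 1 was from NCdel. That is 0.0629%, 0.303% and 3.89% of junctions in libraries 1, 2 and 3, against 0 of 3828 junctions in i3CBEc, which allows a share of up to 0.0784%. The next bin, at 114465000, held 35 joins, 33 of them from i3CBEc-3CBEdel (1, 1 and 31) and 2 from NCdel. That is 0.0629%, 0.0506% and 1.75% of junctions in the same libraries, again against 0 in i3CBEc. Both bins had joins in all 3 libraries, mostly in library 3, and the single joins of library 1 are within what 0 joins in i3CBEc allow.

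The other 6 called bins were those of the far stretch from 114447000 to 114452999, with 21 to 30 joins each, all of them from i3CBEc-3CBEdel. The fullest were at 114452000 (30 joins), 114449000 (29) and 114448000 (23). No log2 difference is given for the 8 bins, because it depends on the added count where a compared group is at 0. The tested downstream bins that were not called were at 114466000 (9 joins in i3CBEc-3CBEdel, 2 in i3CBEc and 5 in NCdel) and in the fifth kb from the α unit (0, 2 and 4 joins in the same groups).

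Where the insertion was added to Iα-deleted cells, the downstream share of all junctions was also higher, at a lower level than without the 3′CBEs, and the call depended on the denominator. Iadel-i3CBEc libraries had 0.423%, 0.317% and 0.553%. Iadel libraries ran from 0% (0 of 1315 junctions in library 6, which allows a share of up to 0.228%) through a median of 0.0752% to 0.162%. On that scale the groups did not overlap. The mean was 0.431% ± 0.118 in Iadel-i3CBEc (n = 3), against 0.0761% ± 0.0527 in Iadel (SD, n = 6), 5.66-fold higher (exact permutation p = 0.0119, adjusted p = 0.0238), where 60% of the 10 regions were called. This rests on 22 joins in Iadel-i3CBEc and 13 in Iadel. Iadel-i3CBEc libraries 2 and 3 both had a join at 114488916 on the plus strand. Its libraries 1 and 3 both had a join at 114490083 on the minus strand. Whether these are separate junctions was not tested. Junctions outside the IgH window took 43.8% to 47.4% of a library in Iadel-i3CBEc, against 54.3% to 79.9% in Iadel. As a share of junctions in the window the means were 0.791% ± 0.200, against 0.318% ± 0.292, a ratio of 2.49, and the groups overlapped. Iadel library 3, at 0.808%, was above 2 of the 3 Iadel-i3CBEc libraries, and the call was lost (exact permutation adjusted p = 0.0529). The 5 downstream joins of Iadel library 3 include a repeat, and 4 remained with repeats collapsed. Its place on this scale without the repeat was not computed. All 3 Iadel-i3CBEc libraries and Iadel libraries 4, 5 and 6 shared 1 sequencing run, and within it the difference was 0.390 percentage points, against 0.355 over all libraries, with an exact permutation p of 0.1, the smallest that 3 against 3 allow. The call was lost without any 1 of the Iadel-i3CBEc libraries or Iadel library 2 (adjusted permutation p 0.0357 to 0.0714 over all such omissions). Before adjustment each of these p was 0.0179 or 0.0357, the smallest that the remaining libraries allow. The omissions cannot tell how far the call rests on any 1 library.

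Of the 22 joins of Iadel-i3CBEc, 12 lay in the 5 kb next to the α unit, and 0 lay in the far stretch. The α unit itself took 0.317% ± 0.166 of junctions in Iadel-i3CBEc and 0.106% ± 0.129 in Iadel, which is 16 and 17 joins, beside 22 and 13 downstream. No downstream bin was called between them by limma, where 50% of the 60 bins were, and 0 had an unadjusted p under 0.05. The 8 downstream bins called for i3CBEc-3CBEdel held 0 joins in both groups, so no difference could show there. The count of 0 is therefore no evidence that the downstream bins are alike.

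In cells that keep Iα no difference was called between groups with and without the insertion. The share was 0.408% ± 0.288 in i3CBEc (n = 3), against 0.242% ± 0.189 in NCdel (SD, n = 6), a ratio of 1.68 (exact permutation p = 0.333, adjusted p = 0.370), where 30% of regions were called. i3CBEc library 3, with 1 join, lay below 5 of the 6 NCdel libraries, and without it the ratio was 2.35. The i3CBEc libraries shared no sequencing run with NCdel, so run and insertion cannot be told apart in this pair. Groups with and without the insertion differed by 0.355 percentage points in Iα-deleted cells, against 0.166 in Iα-bearing cells. The gap of 0.189 between these differences was not called (permutation of libraries within genotype pairs, p = 0.267, adjusted p = 0.373). Between Iadel-i3CBEc and i3CBEc the means differed by 0.0228 percentage points (exact permutation p = 0.9, adjusted p = 1, 0% of regions called), and the sign turned to -0.139 without i3CBEc library 3 and to -0.0381 without Iadel-i3CBEc library 3.

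For deletion of Iα alone the difference did not pass the test. The mean was 0.0761% ± 0.0527 in Iadel, against 0.242% ± 0.189 in NCdel (SD, n = 6 each), a ratio of 0.314 (exact permutation p = 0.0563, adjusted p = 0.0938), where 50% of regions were called. The groups overlapped. As a share of junctions in the IgH window the means were 0.318% ± 0.292, against 0.362% ± 0.229, a ratio of 0.879 and a difference of -0.0439 percentage points (exact permutation p = 0.768, adjusted p = 0.768), so the lower value in Iadel depends on the denominator. The difference was called without NCdel library 2 (-0.204 percentage points, adjusted permutation p = 0.0217, against up to 0.173 over all such omissions), and among the libraries of the shared run it was -0.0946 (exact permutation p = 0.3). No downstream bin was called by limma in i3CBEc against NCdel, Iadel-i3CBEc against i3CBEc or Iadel against NCdel, where 10%, 40% and 43.3% of the 60 bins were called, and 0 had an unadjusted p under 0.05 in each. The tested bins from 114447000 to 114452999 held 0 joins in all of these groups, so no difference could show there.

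Prey on the minus strand gives a deletion between bait and join and prey on the plus strand an inversion. Of the 396 joins 299 (75.5%) were on the minus strand. The share was 74.5% in i3CBEc-3CBEdel, 87.5% in i3CBEc (14 of 16), 68.2% in Iadel-i3CBEc (15 of 22), 92.3% in Iadel (12 of 13) and 77.8% in NCdel (21 of 27). In i3CBEc-3CBEdel it was 90.9%, 64.3% and 76.1% in libraries 1, 2 and 3. It was close between stretches, at 73.2% in the far, 76.5% in the middle and 71.4% in the near one. In the middle stretch all 18 joins of the other 4 groups were on the minus strand, and 32 of the 136 of i3CBEc-3CBEdel were on the plus strand. Those 32 were 0 of 4, 2 of 8 and 30 of 124 joins in libraries 1, 2 and 3, so nearly all came from library 3.

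Minus-strand joins outnumbered plus-strand joins downstream and in the α unit, and the strands were near an even split outside the IgH window. Over the 11 libraries with at least 5 downstream joins it averaged 77.2% ± 14.3 downstream, against 48.4% ± 2.30 outside the IgH window in the same libraries (SD). Downstream was higher in 11 of 11 libraries, by 28.8 percentage points (exact paired permutation test with sign flips, p = 0.000977, the smallest possible, adjusted p = 0.00781 over 8 such tests). In the 7 of these libraries with Iα, downstream joins averaged 78.2% ± 13.6, against 85.1% ± 8.10 in the α unit, and the difference of -6.89 points was not called (exact sign-flip p = 0.406, adjusted p = 0.464).

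**Figure D3:**
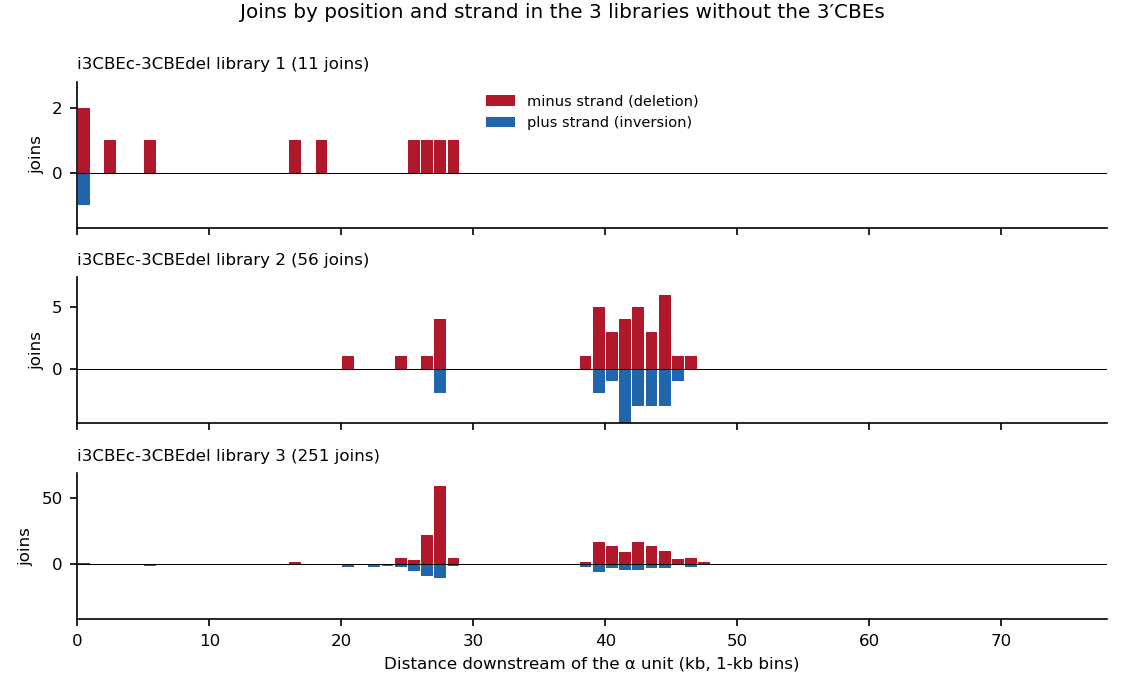
Joins per 1-kb bin by distance downstream of the α unit (kb) in i3CBEc-3CBEdel libraries 1, 2 and 3, with minus-strand joins (deletion) drawn upward and plus-strand joins (inversion) downward; each panel has its own axis. Library 1 has no joins in the far stretch, library 2 has 47 and library 3 has 121, on both strands.

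The far and middle stretches were poor in AGCT beside Sα. Counting each site once in the sequence covered by reads, the far stretch had 24 sites in 7205 bases (0.333 per 100), the middle stretch 24 in 4581 (0.524 per 100) and the near stretch 29 in 6409 (0.453 per 100). The bin at 114464000 had 10 sites in 1000 bases, 1 per 100, and was the only downstream bin with at least 1000 prey bases read and at least 1 motif per 100 of them (1.14 over 10874 read bases). Its neighbour at 114465000 had 0.3 and the fullest far bin, at 114452000, had 0.113 per 100. The Sα bins at 114500000 and 114501000 had 4.92 and 3.4 per 100.

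AGCT was also rarer at the join itself than in α joins. The interval of the middle stretch held the share of joins outside the window, and that of its fullest bin lay above it. It lay within the first 20 prey bases of 33 of 396 downstream joins (8.33%), 7 of 168 far joins (4.17%), 21 of 154 middle joins (13.6%) and 15 of 77 joins in the bin at 114464000 (19.5%), against 48.2% of α joins and 11.6% of joins outside the window. Over libraries, downstream prey reads had 0.534 ± 0.175 AGCT per 100 bases, against 3.54 ± 0.305 in the α unit (SD, n = 7), lower in 7 of 7 (exact sign-flip p = 0.0156, adjusted p = 0.0417). Against joins outside the window it was 0.511 ± 0.180, against 0.652 ± 0.0525 (SD, n = 11), lower in 9 of 11 (exact sign-flip p = 0.0137, adjusted p = 0.0417). The stretches differed: in i3CBEc-3CBEdel the far, middle and near reads had 0.306, 0.822 and 0.420 per 100 bases, against 0.6455 outside the window. Both calls are close to the threshold. The sequence of a region is the same in every library, and it sets the AGCT content of the reads that cover it. Libraries are therefore no replicates of that content, and no conclusion about the joins is drawn from these p-values. Leaving out each library in turn gave adjusted permutation p of 0.0417 to 0.0833 against the α unit and of 0.0234 to 0.0833 against joins outside the window, with no change of sign.

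Join ends showed short microhomology, blunt ends and few insertions. Of the 396 joins 230 (58.1%) had shared bases, 104 (26.3%) were blunt and 62 (15.7%) had inserted bases. Shared bases are counted as the overlap of both alignments, and in 6 of the 230 joins that overlap holds a mismatch (2.61%, against 2.62% in the α unit and 3.76% outside the window). The mean overlap over joins without insertion was 1.47 bases. In i3CBEc-3CBEdel the far stretch had 58.3% with shared bases and 11.9% with insertions, and the middle stretch 53.7% and 16.9%. Over libraries, shared bases averaged 1.72 ± 0.618 downstream, against 1.67 ± 0.119 in the α unit (SD, n = 7, exact sign-flip adjusted p = 0.984), and 1.69 ± 0.764 downstream, against 2.27 ± 0.207 outside the window (SD, n = 11, exact sign-flip adjusted p = 0.0723, lower in 9 of 11). Insertions were found in 15.1% ± 5.47 of downstream joins, against 22.3% ± 1.54 of α joins (n = 7, exact sign-flip adjusted p = 0.075, lower in 6 of 7), and in 21.9% ± 15.4, against 12.5% ± 6.28 outside the window (n = 11, exact sign-flip adjusted p = 0.169). None of these 4 differences was called.

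**Figure D4:**
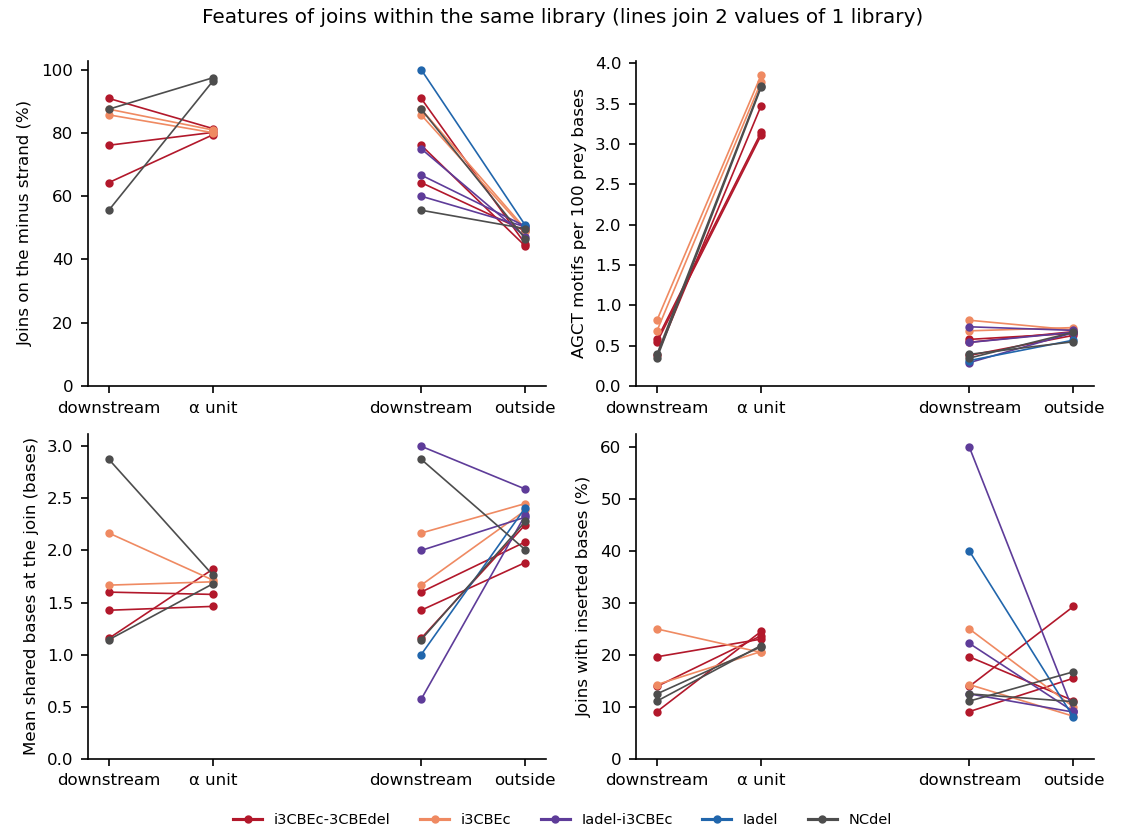
Minus-strand share, AGCT per 100 prey bases, mean shared bases and share of joins with inserted bases, in downstream joins and in α joins (left pairs, 7 libraries) or joins outside the IgH window (right pairs, 11 libraries). Each line joins the values of 1 library; all 11 lines fall from downstream to outside for the minus strand, and all 7 rise from downstream to α for AGCT.

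Of the 3 downstream joins with at least 10 inserted bases, all were in i3CBEc-3CBEdel, and 2 carried switch-region sequence between bait and prey. The 21 inserted bases shown above, in library 2, hold 3 AGCT motifs and occur in 2608 prey reads of the μ unit, 58 outside the window, 2 of ε and 0 of the α unit. An insertion of 20 bases in library 3, at 114449438 on the plus strand, occurs in 1166 prey reads of the α unit and 1 of the μ unit.
insertion of 20 bases: TAGGCTGGAATAGGCTGGGC
Both joins end in the far stretch. The insertion of 15 bases in library 1, at 114489039 on the minus strand, occurs in 2 prey reads of the γ2a unit and in none elsewhere.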

How the data were processed

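CSR-HTGTS-seq junction tables of 21 libraries in 5 groups were deposited by the authors as 1 line per kept junction, without normalisation. The mm9 build and Bowtie2, with no version, are named in the submitters' processing notes; the settings of junction calling and duplicate removal are not given in the sources used here. Libraries held 1180 to 3513 junctions. Iadel library 4 was deposited with 4614 junctions; 3075 of these are reads of libraries 5 and 6 and were removed, 1 of them downstream, leaving 1539. No coordinate correction touches the members; in insertion libraries a shift of 99 bases was taken off positions on the μ side of the insertion.

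A share is the percent of all junctions of a library. The IgH window, from 250 kb downstream to 20 kb upstream of the bait, was divided into 10 regions, whose shares were tested by two-sided exact permutation over libraries, with Benjamini-Hochberg adjustment over the regions. The α unit, which holds Sα, adjoins the downstream region and ends at 114508499. Bins were tested with limma 3.58.1 in R 4.3.3, with adjustment over 60 bins. Join features were compared within libraries by exact sign-flip tests, in libraries with at least 5 downstream joins. Shared bases are the overlap of bait and prey alignments on the read, which may hold mismatches, and inserted bases the gap between them. Other work used Python 3.11.15, pandas 2.3.3, numpy 2.4.6 and scipy 1.17.1. Tests were checked on simulated data.

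Bins are named if they are among the 5 fullest, were called, or had at least 1 AGCT per 100 of at least 1000 read bases; the 2 tested bins without a call, and 2 Sα bins, are given beside them. A rule for single positions (joins of 3 libraries, or 5 joins) named 0. The printed windows, single joins, stretches and the 20-base search were chosen after the values were seen. Members and lists were chosen with earlier results of these data known. Intervals, and limits from counts of 0, cover counting error only, since PCR reads that carry no molecular identifier may repeat a molecule. Alternatives covered the denominator, the border with the α unit, alignment length, repeats, bin size and minimum, the added count, pairing by library number and each library left out; reads with a recorded length alone were added after seeing the data.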

Additional observations from a re-analysis of the deposited data

How the results depend on the processing

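Of 115 values under alternatives other than leaving out a library, 87 were counted as unchanged. For tests this means the same direction and side of the threshold, and for counts of called bins an equal or near count. The higher share in i3CBEc-3CBEdel than in NCdel was 7.48 points without junctions within 10 kb of the bait (adjusted permutation p = 0.0595). With a replicate block it was 5.76 (0.417). Without 1 library it was 1.52 to 8.25, and none of those passed, each at the smallest p that its libraries allow. The higher share of Iadel-i3CBEc over Iadel was 0.473 per IgH junctions (0.0529), 0.319 with the block (0.278), 0.390 in the shared run (0.111), and 0.294 to 0.412 without 1 library. The block pairs libraries of equal number. Its sign-flip p before adjustment was 0.25 in both comparisons, the smallest that these pairs allow, so it could not pass. With the α border 5 kb farther downstream, Iadel-i3CBEc minus i3CBEc turned to -0.122 (-0.139 to 0.137 without 1 library) and Iadel minus NCdel was -0.116 (adjusted permutation p = 0.0397); the last was -0.0439 per IgH junctions (0.768) and -0.204 to -0.106 without 1 library.

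Downstream bins called for i3CBEc-3CBEdel against i3CBEc were 0 of 10 with an added count of 2 and 5 of 11 with 2-kb bins. They were 1 of 10 with the replicate block and 0 to 8 of 10 without 1 library. With at least 5 junctions a bin, 20 downstream bins were tested. Of these, 14 were called in i3CBEc-3CBEdel against NCdel. In i3CBEc against NCdel, Iadel-i3CBEc against Iadel and Iadel-i3CBEc against i3CBEc 1 each was called. With at least 1 junction these were 14, 2, 5 and 1 of 38. The share called over all bins of the window is not given for these settings, so the counts are descriptions. Iadel-i3CBEc against Iadel had 1 of 11 with 2-kb bins and 0 to 1 of 10 without 1 library.

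In the 3 libraries with at least 10 joins, where the smallest sign-flip p is 0.25, the minus-strand difference from outside was 31.1 points, shared bases against α turned to -0.227 (-0.133 to 0.163 without 1 library), insertions against outside turned to -4.45 points, and AGCT was -2.74 against α and -0.152 against outside. With at least 3 joins, shared bases against outside were -0.598 (adjusted permutation p = 0.0179; -0.726 to -0.462 without 1 library) and AGCT was -0.128 (0.0557). With repeats collapsed AGCT was -3.002 against α (0.0625) and -0.130 against outside (0.0833); without 1 library it was -3.08 to -2.95 and -0.168 to -0.119. The cause of these changes was not tested. Library numbers do not pair the samples: same-numbered libraries had correlations of -0.591 to 0.767 over the 10 regions. Outside i3CBEc-3CBEdel a library held 0 to 9 downstream joins, which limits every comparison among those groups.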
